A study of Mus musculus with 22 samples.

Results

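The genes described here encode RNA polymerase II (PolII) itself and the factors that bring it to promoters and release it into genes. They are the protein-coding genes on mouse autosomes, in the GENCODE vM1 annotation of the mm9 build, whose symbols are Polr2 plus a letter, begin with Gtf2a, Gtf2b, Gtf2e, Gtf2f or Gtf2h, are Taf or Med followed by a digit, or are Tbp, Cdk7, Cdk9, Ccnt1 or Ccnt2, with Taf13 left out. The rule gave 78 gene records with 76 distinct symbols, out of 21418 autosomal protein-coding records. Taf9 and Med20 each have 2 records that begin at or within a few bases of the same position and therefore share peaks. Several symbols also fit a wider meaning: Taf1b, Taf1c and Taf1d belong to the SL1 factor of RNA polymerase I, Taf5l and Taf6l to histone acetyltransferase complexes, and Taf15 is an RNA-binding protein that associates with TFIID.

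PolII chromatin immunoprecipitation followed by sequencing (ChIP-seq) was done in G1E-ER4 cells, a subline of a mouse GATA1-null proerythroblast line in which both copies of the gene for the architectural protein CTCF carry an auxin-inducible degron fused to mCherry, and in which the plant receptor OsTIR, brought in by a retrovirus, allows auxin to trigger CTCF degradation. All cells, controls included, carry the degron and were arrested in prometaphase with 200 ng/ml nocodazole. The auxin-treated cells received 1 mM auxin for the last 4 h of the arrest and throughout the release, and the untreated controls did not. Prometaphase cells were taken at 0 min of release, and early-G1, mid-G1 and late-G1 cells at 60, 120 and 240 min, and all were sorted for DNA content and mCherry, prometaphase cells also for a mitotic phospho-epitope. Each condition had 3 libraries in mid-G1 and 2 at each other stage, 18 in all. Conditions follow the GEO labels. Other file lists of the series differ on the condition of late-G1 auxin replicate 1, and without that library 8 member records fell and none rose from early-G1 to late-G1, and none was called for auxin or the interaction. The 4 remaining samples of the 22 are input chromatin, 1 per stage, with no list of their own. These are separate samples of 1 engineered line, and a p-value measures the spread between such samples. Peaks were counted from pooled cells, so more cells with PolII at a gene and more PolII per cell cannot be told apart.

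At a PolII promoter, TFIID (TBP and its associated factors, the TAFs) binds the core promoter, TFIIA and TFIIB stabilise it, TFIIF escorts PolII, and TFIIE and TFIIH open the DNA. Cdk7, the kinase of TFIIH, phosphorylates the tail of the largest PolII subunit, Mediator relays signals from activators to the polymerase, and P-TEFb (Cdk9 with a T-type cyclin, Ccnt1 or Ccnt2) releases paused polymerase into the gene. Mitosis strips most PolII from chromosomes, and it returns as cells enter G1. Because these factors are needed for each round of transcription, their own genes are expressed in nearly all cells.

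The start sites of the members that carry the main results are shown first. They are Polr2a, which encodes the largest subunit of PolII, and 6 members that changed between early-G1 and late-G1 and whose strongest peak lay at their own start. Taf4b also met both conditions and is described by its values only. Each line gives the 120 bases just upstream of the annotated start, 5′ to 3′ on the strand of the gene, from the mm9 genome. Capitals mark exact matches, on either strand, to the TATA box (TATAAA), the GC box (GGGCGG), and core motifs of ETS factors (CCGGAAG) and NRF1 (GCATGCG).
Polr2a (chr11:69572140-69572259, minus strand): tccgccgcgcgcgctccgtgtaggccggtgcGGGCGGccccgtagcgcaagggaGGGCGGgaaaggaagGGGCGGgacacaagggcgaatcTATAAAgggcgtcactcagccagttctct
Gtf2f1 (chr17:57150724-57150843, minus strand): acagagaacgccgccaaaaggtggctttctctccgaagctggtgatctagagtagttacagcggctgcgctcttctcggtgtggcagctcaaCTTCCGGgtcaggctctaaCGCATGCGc
Gtf2b (chr3:142428070-142428189, plus strand): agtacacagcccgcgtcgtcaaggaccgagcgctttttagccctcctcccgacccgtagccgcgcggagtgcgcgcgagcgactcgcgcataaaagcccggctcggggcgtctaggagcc
Med4 (chr14:73909736-73909855, plus strand): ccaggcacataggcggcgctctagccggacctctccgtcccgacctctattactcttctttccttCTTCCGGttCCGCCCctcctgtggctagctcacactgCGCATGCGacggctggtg
Med18 (chr4:132019837-132019956, minus strand): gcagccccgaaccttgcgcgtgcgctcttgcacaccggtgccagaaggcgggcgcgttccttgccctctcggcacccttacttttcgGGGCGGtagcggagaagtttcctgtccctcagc
Taf12 (chr4:131830170-131830289, plus strand): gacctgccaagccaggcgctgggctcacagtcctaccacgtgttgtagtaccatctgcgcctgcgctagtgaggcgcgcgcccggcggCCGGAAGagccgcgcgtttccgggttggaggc
Med9 (chr11:59761588-59761707, plus strand): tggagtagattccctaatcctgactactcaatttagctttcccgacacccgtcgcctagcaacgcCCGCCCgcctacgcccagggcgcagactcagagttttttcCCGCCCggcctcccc

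The 3 GC boxes of Polr2a begin 89, 66 and 51 bases upstream of its start and its TATA box begins at 29 bases upstream. Gtf2f1 and Med4 both hold an ETS core and overlapping NRF1 cores on the 2 strands close to the start. The Gtf2b window holds none of the motifs in exact form. In a wider window, from 250 bases upstream to 50 bases downstream of the start, an ETS core was present in 28 of the 78 members (35.9%), against 10.9% of all 21418 starts and 20.5% of the 9383 genes tested below. A YY1 core (AAGATGG) was present in 12 members (15.4%), against 6.75% of all starts and 7.77% of the genes tested. A GC box was present in 67.9% of members, 43.7% of all starts and 62.6% of the genes tested. The shares in the same order were 33.3%, 37.6% and 39.4% for a CCAAT box (CCAAT), 7.69%, 4.37% and 7.06% for an NRF1 core, and 12.8%, 13.5% and 6.97% for a TATA box. These are matches of letters on both strands, and 2 motifs may overlap. The median GC content of the window was 59% in members, 55.3% over all starts and 60.3% over the genes tested.

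The deposited lists gave between 2414 and 3918 peaks per prometaphase library and between 50594 and 117125 per post-mitotic library. An estimate of depth, recovered from the peak values as background fragments per kb of genome, was 4.94 to 5.95 in prometaphase and 4.54 to 13.3 after mitosis. By this estimate mid-G1 control replicate 1 was the shallowest post-mitotic library and late-G1 control replicate 3 the deepest. Every pair of replicates differed in its values, and the Spearman correlation between gene values of 2 post-mitotic replicates was 0.83 to 0.946. The proerythroblast markers Kit, Gata2, Tal1, Epor, Tfrc, Myb and Nfe2 had a start-site peak in all 14 post-mitotic libraries, and Lmo2 in 13. The T-cell, B-cell, liver, neuronal and muscle markers Cd3e, Pax5, Alb, Neurod1 and Myod1 had no start-site peak in any library. Degradation acts on the CTCF protein, so peaks at Ctcf itself, present at its start in all 14, do not check the treatment.

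Nearly all members carried PolII after mitosis. A member was taken as detected in a library when a peak overlapped the gene or the 500 bp on either side. Of the 78, 73 were detected in all 14 post-mitotic libraries (93.6%), against 43.8% of all genes. A peak lay within 500 bp of the annotated start (a start-site peak) in all 14 libraries at 70 members (89.7%), against 36.2% of all genes. In single post-mitotic libraries the number of members with a start-site peak was between 70 and 73. By role, this held for 10 of 12 PolII subunit genes, 15 of 17 genes of TBP and the TAFs, 7 of 8 genes of TFIIA, TFIIB, TFIIE and TFIIF, all 6 of TFIIH, all 3 of P-TEFb, all 3 of SL1 and 26 of 29 of Mediator.

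The remaining members were few. Gtf2a1l, a germ-cell relative of the TFIIA large subunit, had no peak in any of the 18 libraries. Polr2i, a small PolII subunit, had a peak in only 3 libraries, early-G1 auxin replicate 2 and both late-G1 controls, and Polr2b, the second-largest subunit, in 12, missing from mid-G1 control replicate 1 and mid-G1 auxin replicate 3. None of these peaks lay at the starts of Polr2i or Polr2b. The 3 Polr2i summits lay outside the gene, and peaks covered 0% of Polr2i itself in all 18 libraries, so only its flank was reached. No list had a peak between 5.75 kb below and 1.59 kb above the Polr2i start, or between 3.01 kb below and 0.95 kb above the Polr2b start. A gene without a listed peak may still hold PolII, and why these 2 subunits of the same enzyme differ from the rest was not tested. The Mediator gene Med30 had a peak in 13 libraries, all but mid-G1 control replicate 1, and Med31 in 13, all but late-G1 auxin replicate 2. Start-site peaks were absent throughout at Taf6l and at Med12l, a paralogue of the Mediator kinase-module subunit Med12, and were present in 11 libraries at Taf11 and Med31.

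Peak heights were compared as ranks. Within each library, genes with a peak were ordered by the fold enrichment of their strongest peak over local background, with rank 1 for the strongest, and 9383 genes with a peak in all 14 libraries, 73 members among them, were tested. A rank describes the tallest peak and not the PolII along a gene, and it cannot show a change that all genes share. Over the tested members the median of the mean ranks was 4030, against 4710 over all genes tested, so as a list they were spread over the same range as other active genes.

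Polr2a had one of the tallest peaks of all genes. Its rank was between 7 and 31.5 with a median of 17 in the 14 post-mitotic libraries, and its fold enrichment was 86.7 to 111. The summit fell in an annotated untranslated exon in all 14 libraries, at positions 69572045 to 69572111 of chromosome 11, just downstream of the sequence shown above. The other PolII subunit genes were far lower. The next was Polr2d at a mean rank of 2052 ± 774 (SD, n = 14), and the lowest in the tested set was Polr2e at 7034 ± 947 (SD, n = 14), whose product is shared by all 3 nuclear polymerases. The subunits of 1 enzyme thus differed in peak rank by far more than the spread between libraries.

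Among the other roles, the top member was Taf4a for TBP and the TAFs (mean rank 75.5 ± 41.1, SD, n = 14), Gtf2b for TFIIA, TFIIB, TFIIE and TFIIF (139 ± 93.8), Taf1d for SL1 (193 ± 47.2), Med22 for Mediator (361 ± 319), Ccnt1 for P-TEFb (472 ± 151) and Gtf2h3 for TFIIH (1462 ± 716). The Gtf2h3 peak is shared with the start of Eif2b1, and its summit lay outside Gtf2h3 in all 14 libraries. Gtf2a1, the TFIIA large subunit, ranked 151 ± 67.3, beside Gtf2b, and these values overlap between libraries. Cdk7 was at 4967 ± 1597 and Cdk9 at 6719 ± 1615. The value of Ccnt1, the partner of Cdk9, is that of a peak inside the gene. Ranked among start-site peaks, Ccnt1 had a median of 7295 (205 to 8650 over the 14 libraries) and Cdk9 of 5908 (3742 to 7950). In 5 of the 14 libraries the peak inside Ccnt1 was wide enough to reach its start window. The start-site values of Ccnt1 therefore mix different peaks, and no order of Ccnt1 and Cdk9 is drawn from them. Median ranks by role, over all members with any post-mitotic peak and not only those tested, were 1793 for TFIIA, TFIIB, TFIIE and TFIIF, 2874 for TBP and the TAFs, 3917 for TFIIH, 4030 for P-TEFb, 4637 for Mediator, 4789 for the PolII subunits and 6056 for SL1. The PolII subunit value includes the untested, low-ranked Polr2b and Polr2i, and that of Mediator includes Med30 and Med31, so these medians are not comparable with that of the tested members. The lowest tested member was the Mediator gene Med13l at 9116 ± 513.

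**Figure D1:**
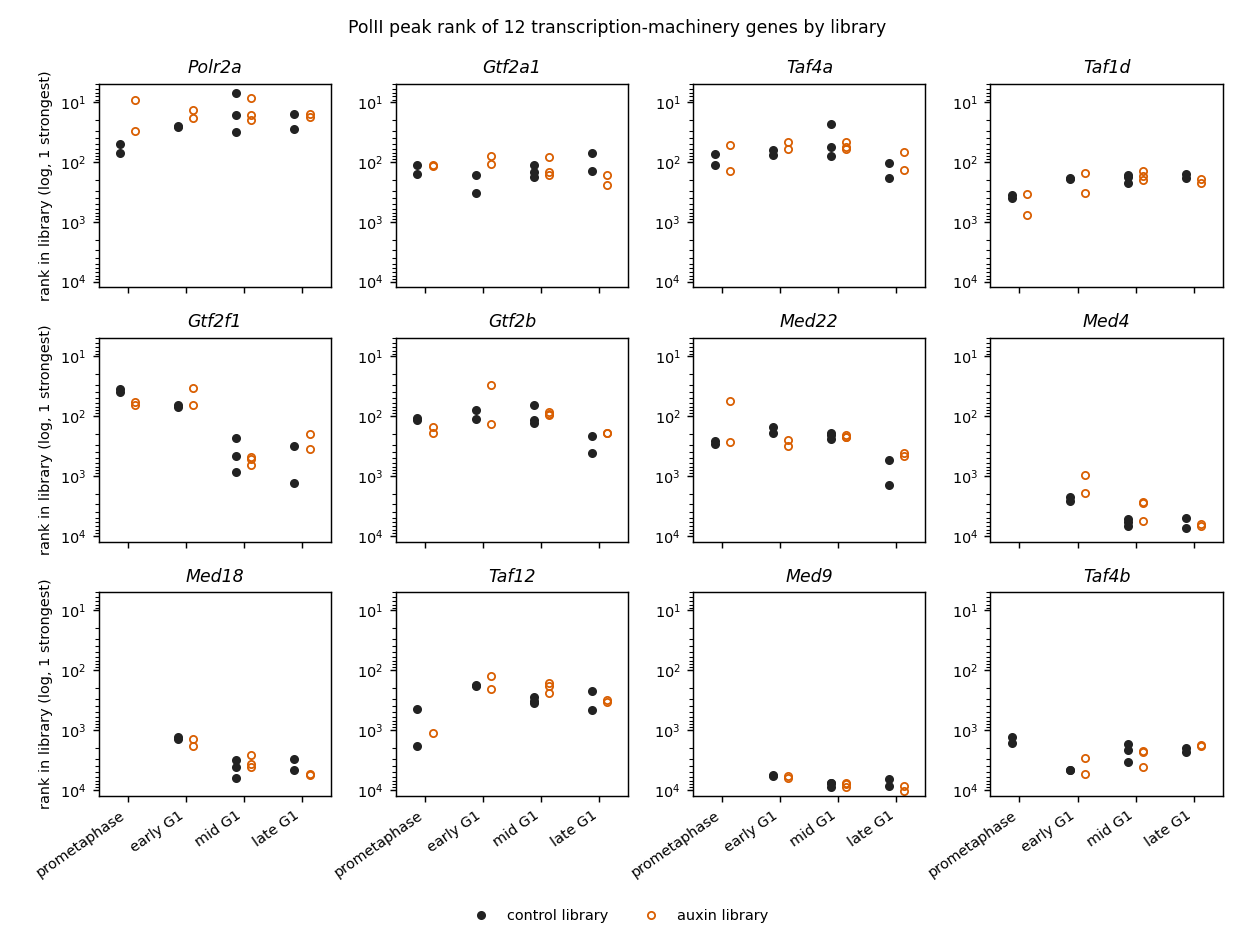
Rank of the strongest PolII peak in each library for 12 members, on a log axis with rank 1 at the top. Each point is 1 library (filled, untreated control; open, auxin), by stage, and a missing point means no listed peak. Polr2a lay between 7 and 31.5 in all post-mitotic libraries, whereas Gtf2f1 lay at 34.5 to 70 in early-G1 and at 201 to 1322 in late-G1, and Taf4b moved the opposite way.

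For some members the tallest peak belongs to a neighbour or sits away from the start, which the rank cannot separate. The strongest peak lay at the member's own start, with no other coding start within 500 bp of it, for 50 of the 78 members, at a start shared with another coding gene for 18, at another coding gene's start for 4 and away from coding starts for 5. The peak counted for Tbp lay a median of 27.4 kb downstream, at the start of Pdcd2 near the 3′ end of Tbp. At its own start, Tbp ranked 3239 to 7610 among start-site peaks over the 14 libraries, with a median of 5031. The peaks counted for Gtf2h4 and Taf6l lay at the starts of Vars2 and Tmem179b, that of the longer Med20 record at Usp49, and that of Ccnt1 a median of 2.88 kb inside its own gene, within an exon annotated as untranslated. Med22 starts back to back with the ribosomal protein gene Rpl7a, and the summit lay 165 to 205 bp upstream of the Med22 start.

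Between early-G1 and late-G1, 11 member records changed rank, and 10 of them moved down. The test was limma on −log2(rank), a scale on which 1 unit is a doubling of the rank number, with 6 group means and conditions averaged, and Benjamini-Hochberg adjustment over all 9383 genes. The 10 records that fell are 9 genes, since the 2 Taf9 records share 1 peak, and they are 13.7% of the 73 tested, against 6.09% of all genes tested (571). One member, Taf4b, rose (1.37%), against 4.77% of all genes (448). The median change was −0.14 over members and 0.00 over all genes, and 48 of 73 members had a negative change (65.8%), against 49.5% of all genes. All 4 late-G1 ranks lay below all 4 early-G1 ranks for 13 of the 73 members (17.8%), against 10.9% of all genes, and above them for 2 members (2.74%), Taf4b and Polr2g, against 9.03% of all genes.

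Genes of the factors that accompany PolII to the promoter held the largest change. Gtf2f1, the large subunit of TFIIF, ranked 70 and 65.5 in the early-G1 controls and 64 and 34.5 with auxin. In mid-G1 it ranked 235, 458 and 850 in controls and 526, 658 and 475 with auxin, and in late-G1 312 and 1322 in controls and 201 and 360 with auxin. All 10 mid-G1 and late-G1 libraries lay below all 4 early-G1 libraries, while mid-G1 and late-G1 overlapped each other. From early-G1 to late-G1 Gtf2f1 fell by 2.88 on the −log2(rank) scale (SE 0.49, limma adjusted p = 0.00599). Its fold enrichment was 79.1 to 93.5 in early-G1, 44.3 to 53 in mid-G1 and 47.8 to 61.2 in late-G1, values that each library's own background sets. The summit lay outside the gene in all 14 libraries, at positions 57150756 to 57150798 of chromosome 17, inside the sequence shown above.

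Gtf2b, the single-chain factor TFIIB, moved later. It ranked 112 and 78 in early-G1 controls and 135 and 30 with auxin, 66 to 132 over the 6 mid-G1 libraries, and 218 and 410 in late-G1 controls and 191 and 191 with auxin. Mid-G1 lay within the early-G1 range and late-G1 outside it. Gtf2b fell by 1.63 (SE 0.42, limma adjusted p = 0.0363). The other TFIIA, TFIIE and TFIIF genes did not pass the test. Gtf2a1 ranked 80.5 to 323 in early-G1 and 70 to 242 in late-G1, and the change of Gtf2f2, the small subunit of TFIIF, was −0.07 (SE 0.11).

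Among TBP and the TAFs, Taf9, Taf12 and Taf6l fell and Taf4b rose. Taf9, a histone-fold subunit of TFIID, ranked 3027 and 4081 in early-G1 controls, 3279 and 3223 with auxin, 4882 to 5297 in mid-G1, and 6980, 7742, 7316 and 6251 in late-G1. The 3 stages did not overlap, and Taf9 fell by 1.06 (SE 0.11, limma adjusted p = 0.000634). The peak is shared with the start of Rad17 on the opposite strand. Taf12, which pairs with Taf4 in TFIID, fell by 0.93 (SE 0.24, limma adjusted p = 0.0376), from ranks of 123 to 206 in early-G1 to 224 to 464 in late-G1, with mid-G1 between 162 and 354.

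Taf4b, a paralogue of Taf4a known from germ cells, ranked 4669, 4669, 5350 and 2931 in early-G1 and 2002, 2323, 1832 and 1788 in late-G1. It rose by 1.12 (SE 0.28, limma adjusted p = 0.0297). Taf4a itself was at 46 to 77 in early-G1 and 68 to 182 in late-G1, a change of −0.93 (SE 0.38) that did not pass the test (limma adjusted p = 0.148). For Taf6l the value is that of the peak at its 3′ end, which ranked 304 to 373 in early-G1, 389 to 708 in mid-G1, 472 and 479 in the late-G1 controls and 1658 and 2082 with auxin in late-G1, and it fell by 1.48 (SE 0.19, limma adjusted p = 0.00137). Tbp did not pass the test at its own start either (−0.15, SE 0.16).

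Mediator, with 27 genes tested, gave 4 of the members that fell and none that rose, against 6.09% and 4.77% of all genes tested. Med4 and Med9, in the middle module, and Med18 and Med22, in the head module, were the 4. Med4 ranked 2626 and 2276 in early-G1 controls, 968 and 1897 with auxin, 2766 to 6803 in mid-G1 and 5137 to 7424 in late-G1, and fell by 1.81 (SE 0.27, limma adjusted p = 0.00311). Med18 ranked 1326 to 1817 in early-G1, 2658 to 6230 in mid-G1 and 3078 to 5763 in late-G1, and fell by 1.63 (SE 0.23, limma adjusted p = 0.00231). Like Gtf2f1, both had left the early-G1 range in all 6 mid-G1 libraries.

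Med22 resembled Gtf2b in its timing. It ranked 153 to 321 in early-G1, 194 to 246 in mid-G1, and 546 and 1391 in late-G1 controls and 421 and 471 with auxin, and fell by 1.49 (SE 0.25, limma adjusted p = 0.00543). Med9 fell by 0.51 (SE 0.12, limma adjusted p = 0.0285), from 5551 to 6290 in early-G1 to 6597 to 10289 in late-G1. The largest positive change in Mediator was Med21, which joins the middle module, at 1.19 (SE 0.39, limma adjusted p = 0.0814). It ranked 806 to 1132 in early-G1 and 241 to 1039 in late-G1, so the groups overlap, and late-G1 control replicate 3 is the value of 1039. Without that library the change was 1.62 and passed (limma adjusted p = 0.0152).

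None of the 10 tested PolII subunit genes, 6 TFIIH genes, 3 P-TEFb genes or 3 SL1 genes passed the test in either direction. Of all genes tested 4.77% rose and 6.09% fell, so groups this small may hold no call without differing from other genes. Polr2a, at 13.5 to 25.5 in early-G1 and 15.5 to 28.5 in late-G1, changed by 0.10 (SE 0.43). The changes were −0.45 to 0.44 in the PolII subunits, −0.86 to 0.73 in TFIIH, −0.29 to −0.19 in P-TEFb and 0.07 to 0.37 in SL1. Cdk7 was at −0.14, Cdk9 at −0.28 and Ccnt1 at −0.19. In the start-site window Ccnt1 was at 0.91 (SE 1.22), also not past the test, but in some libraries that window held the peak inside the gene.

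**Figure D2:**
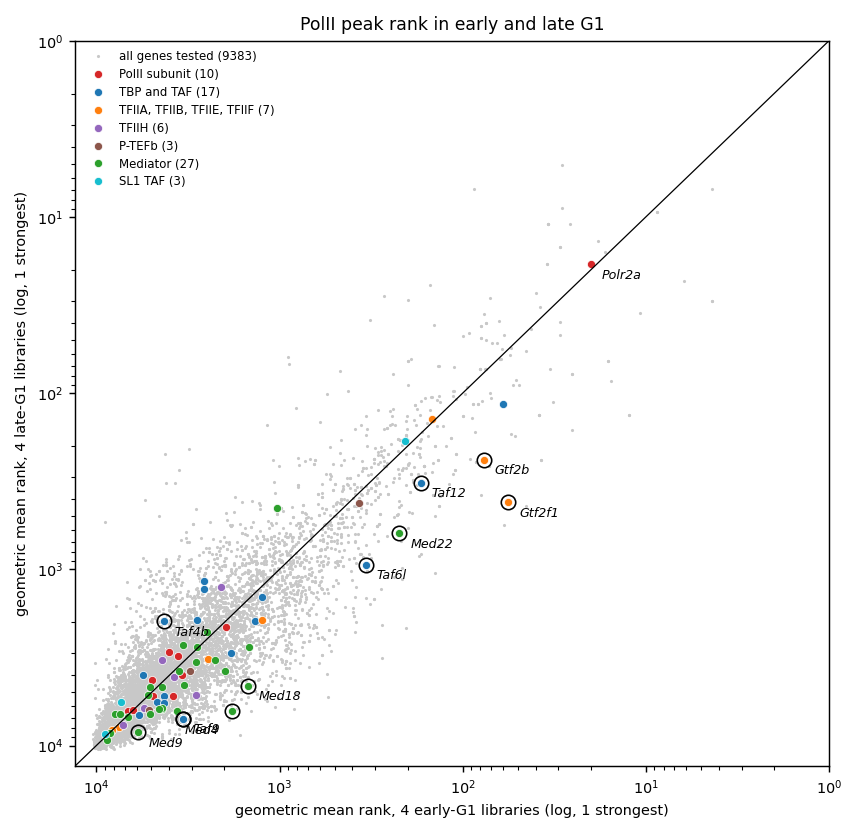
Geometric mean rank of the strongest PolII peak over the 4 early-G1 libraries (x axis) and the 4 late-G1 libraries (y axis), both log axes with rank 1 at the right and top. Grey points are all 9383 genes tested, coloured points the 73 members by role, and black rings the 11 member records past an adjusted p of 0.05, of which 10 lie below the diagonal and Taf4b above it.

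Some of these calls rest on few libraries or on the rank scale. Gtf2f1, Med4, Med18 and Taf9 passed in all 24 alternative fits. Taf12 passed in 12 of 24 and Gtf2b in 13, Med9 and Taf4b in 18 and Med22 in 23, each with the same direction throughout. On centred log2 fold enrichment the adjusted p was 0.167 for Gtf2b, 0.308 for Taf12 and 0.062 for Med22, and with normal scores of the rank 0.0721 for Gtf2b and 0.217 for Taf12. Taf12 also lost its call with depth as a covariate (adjusted p = 0.0576) and with a mean-variance trend (adjusted p = 0.106). Taf12 lost its call without either early-G1 control, early-G1 auxin replicate 2, mid-G1 control replicate 2, mid-G1 auxin replicate 1, late-G1 control replicate 3 or either late-G1 auxin library (adjusted p = 0.0506 to 0.124). Gtf2b lost it without either early-G1 control, early-G1 auxin replicate 2, any 1 of the mid-G1 auxin libraries, late-G1 control replicate 3 or either late-G1 auxin library (adjusted p = 0.0509 to 0.111). Med9 lost it without any 1 early-G1 library, late-G1 control replicate 2 or late-G1 auxin replicate 2 (adjusted p = 0.0689 to 0.0908). Taf4b lost it without either early-G1 control, early-G1 auxin replicate 1, late-G1 control replicate 2 or either late-G1 auxin library (adjusted p = 0.0689 to 0.103).

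In prometaphase, when most PolII has left the chromosomes, 9 of the 78 members kept a start-site peak in all 4 libraries (11.5%), against 3.13% of all genes. They were Polr2a, Gtf2f1, Taf4a, Gtf2a1, Gtf2b, Med22, Med21, Taf1d and Taf7. In prometaphase, peaks covered 0% of the Taf4a gene and at most 0.258% of the Med22 gene, so these start-site peaks lay mostly or wholly upstream. After mitosis the strongest peaks of Med22 and Med21 were shared with the starts of Rpl7a and Tm7sf3, so a start-site peak may belong to the neighbour. Among genes with a start-site peak in all 14 post-mitotic libraries, the share was 9 of 70 for members (12.9%) and 667 of 7748 for all genes (8.61%). At least 1 prometaphase library had a start-site peak at 29 members (37.2%), against 11.5% of all genes, and 49 members had none. Single libraries had 23 and 21 such members in the controls and 15 and 10 with auxin, next to 1690, 1492, 1386 and 1066 of all genes. The prometaphase comparison has no test.

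By role, the 9 comprised 1 of 12 PolII subunit genes, 3 of 8 genes of TFIIA, TFIIB, TFIIE and TFIIF, 2 of 17 genes of TBP and the TAFs, 2 of 29 Mediator genes and 1 of 3 SL1 genes. None of the 6 TFIIH or 3 P-TEFb genes had a start-site peak in all 4. At a share of 3.13% of all genes, groups this small do not show a difference between roles. Ranked among genes with a start-site peak, Polr2a was at 54 and 33.5 in the prometaphase controls and at 5 and 19 with auxin. Gtf2f1 was at 23 and 25 in controls and 45.5 and 42 with auxin, and Gtf2b at 91 and 80.5 in controls and 116 and 149 with auxin. Taf7, a small TFIID subunit, was the lowest of the 9 at 656, 715, 898 and 616. Gtf2f1, Gtf2b and Med22, which fell after early-G1, had prometaphase peaks in every library. The same share among all genes that fell was not counted, so no link between the fall and prometaphase peaks is drawn. Of the others that fell, Taf12 had a start-site peak in 3, and Taf6l had a peak over the gene in all 4 but none at its start. Med4, Med18, Med9 and Taf9 had no peak in any prometaphase library, and they also ranked lower in early-G1 than Gtf2f1, Gtf2b and Med22.

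**Figure D3:**
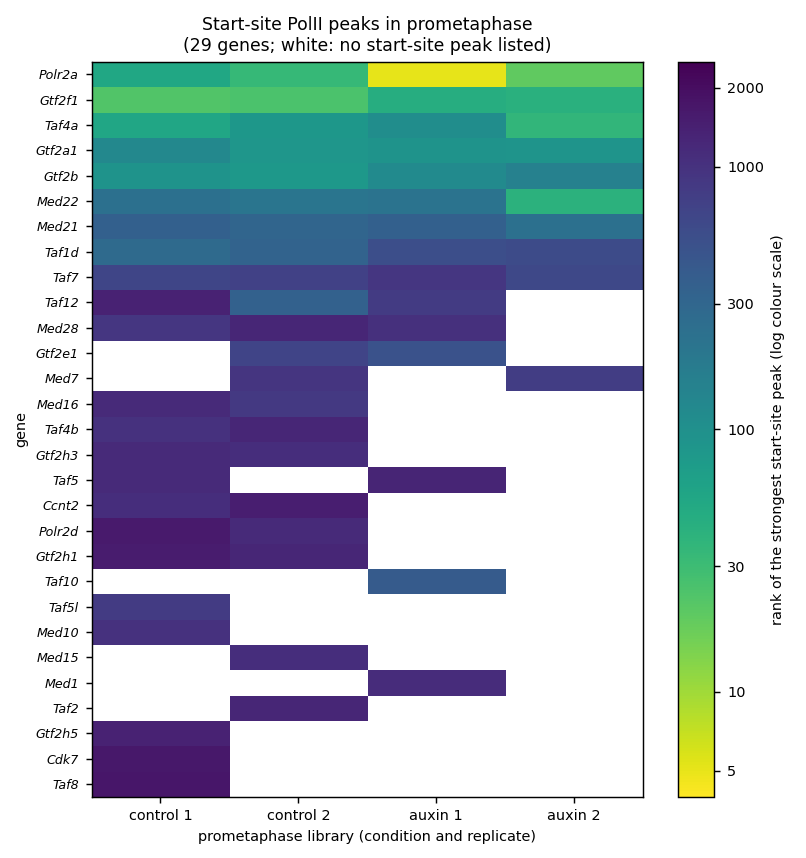
Rank of the start-site PolII peak in each of the 4 prometaphase libraries (columns) for the 29 members with at least 1 such peak (rows), on a log colour scale from yellow (strongest) to dark purple (weakest), white where no start-site peak is listed. The first 9 rows, Polr2a to Taf7, have a peak in all 4 libraries.

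To ask whether CTCF depletion changed PolII at these genes, the auxin-treated and control libraries were compared over the 3 post-mitotic stages. No member was called, against 0.48% of all genes tested that were higher with auxin (45) and 0.245% that were lower (23) by limma. At an unadjusted p under 0.05 there were 9 of 73 members (12.3%) and 914 of all genes (9.74%). The changes of the 73 members lay between −0.57 and 0.62 on the −log2(rank) scale with a median of −0.01, and 38 were negative and 35 positive.

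The lowest adjusted p was that of Taf6l, at −0.57 (SE 0.14, limma adjusted p = 0.162), which was −0.65 and passed without mid-G1 auxin replicate 3 (adjusted p = 0.0351). The largest positive change was Med13, of the Mediator kinase module, at 0.62 (SE 0.23, limma adjusted p = 0.406). Polr2a was at 0.38 (SE 0.33), Tbp at −0.20, Cdk9 at −0.07 and Cdk7 at −0.26, none past the test. A p-value that misses the threshold does not show that PolII was the same at these genes in both conditions.

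**Figure D4:**
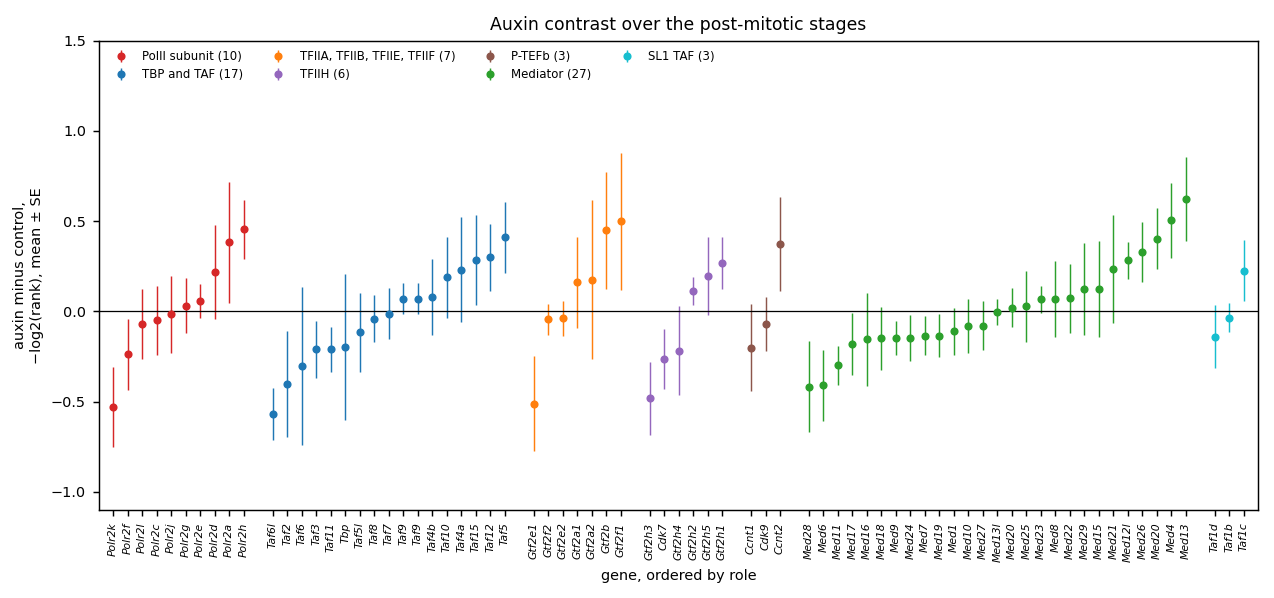
Auxin minus control change in −log2(rank) for the 73 tested members, averaged over the 3 post-mitotic stages; points are limma estimates, bars are ± SE, colours and order give the role. The points run from −0.57 (Taf6l) to 0.62 (Med13), and none passed an adjusted p of 0.05.

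Nor was any member called for a difference between conditions in its early-G1 to late-G1 change, against 1 gene of all tested (0.0107%) by limma. At an unadjusted p under 0.05 there were 5 of 73 members (6.85%), against 504 of all genes (5.37%), a similar share. The 5 were Taf6l, Gtf2a1, Med22, Med25 and the longer Med20 record. Gtf2a1 ranked 167 and 323 in early-G1 controls against 80.5 and 109 with auxin, and 141 and 70 in late-G1 controls against 242 and 162 with auxin (difference of the changes −2.31, SE 0.66, limma adjusted p = 0.651). This comparison had the least power, as it takes the difference of 2 changes, each between groups of 2 libraries.

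The share of each gene covered by peaks also fell for several members. It is the percentage of the gene's bases under any listed peak, and it reflects PolII along the gene as well as how much each library's list covers. Of the 73 members, 9 fell from early-G1 to late-G1 (12.3%), against 7.66% of all genes tested, and none rose, against 2.74%, by limma on the arcsine of the square root of the share. The 9 were Polr2a, Ccnt2, Gtf2f2, Taf4a, Taf5, Taf12, Med13, Med15 and Med23. The total covered length was 56.8 to 73.3 Mb in early-G1 and 42.1 to 70.2 Mb in late-G1.

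Polr2a was covered over 57.6% and 74.3% in early-G1 controls and 70.9% and 69.5% with auxin, and over 32.5% and 41% in late-G1 controls and 32.7% and 25.4% with auxin (limma adjusted p = 0.0292). Ccnt2, a cyclin of P-TEFb, was covered over 72% and 79.1% in early-G1 controls, 54.3% and 44.3% with auxin, and 35%, 35.3%, 24.7% and 21.8% in late-G1 (limma adjusted p = 0.0159). Med23, of the Mediator tail, was covered over 12.6% to 20.3% in early-G1 and 3.8% to 6.84% in late-G1 (limma adjusted p = 0.00969). Med13 was covered over 28% to 47.4% and then 5.42% to 11.3% (limma adjusted p = 0.0231). For these 4 genes the early-G1 and late-G1 libraries did not overlap, nor did they for Taf4a, Taf12 and Med15. For Gtf2f2 and Taf5 they did overlap. All had been called for a fall, and the share of all genes without overlap in coverage was not counted. The calls of Polr2a and Med13 were lost without any 1 early-G1 library, late-G1 control replicate 2 or either late-G1 auxin library (adjusted p = 0.0518 to 0.113 and 0.0537 to 0.0965), and that of Ccnt2 without early-G1 control replicate 2, early-G1 auxin replicate 1 or either late-G1 auxin library (adjusted p = 0.0525 to 0.0732). The rank of Polr2a over the same 8 libraries was 13.5 to 28.5, with early-G1 and late-G1 overlapping, whereas Taf12 fell in both rank and covered share.

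The 4 longest members with a start-site peak in all 14 libraries were covered over small shares. Med13l (205 kb) was covered over 3.27% to 4.88% in early-G1 and 1.03% to 2.44% in late-G1, and Med27 (178 kb), Taf3 (134 kb) and Taf4b (117 kb) over less than 1% in all libraries. None of these 4 passed the test. The number of members that fell in coverage was 27 with recovered depth as a covariate, 3 with the replicate number as a block, 0 on the scale of log2 covered bases and between 1 and 17 when 1 library was left out, so the list depends on the libraries and settings used. It was 17 when mid-G1 control replicate 1, which had the lowest depth, was left out, 1 without early-G1 control replicate 2 or either late-G1 auxin library, 2 without early-G1 control replicate 1 or early-G1 auxin replicate 2, 3 without early-G1 auxin replicate 1 or late-G1 control replicate 2, and 5 without mid-G1 auxin replicate 1.

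**Figure D5:**
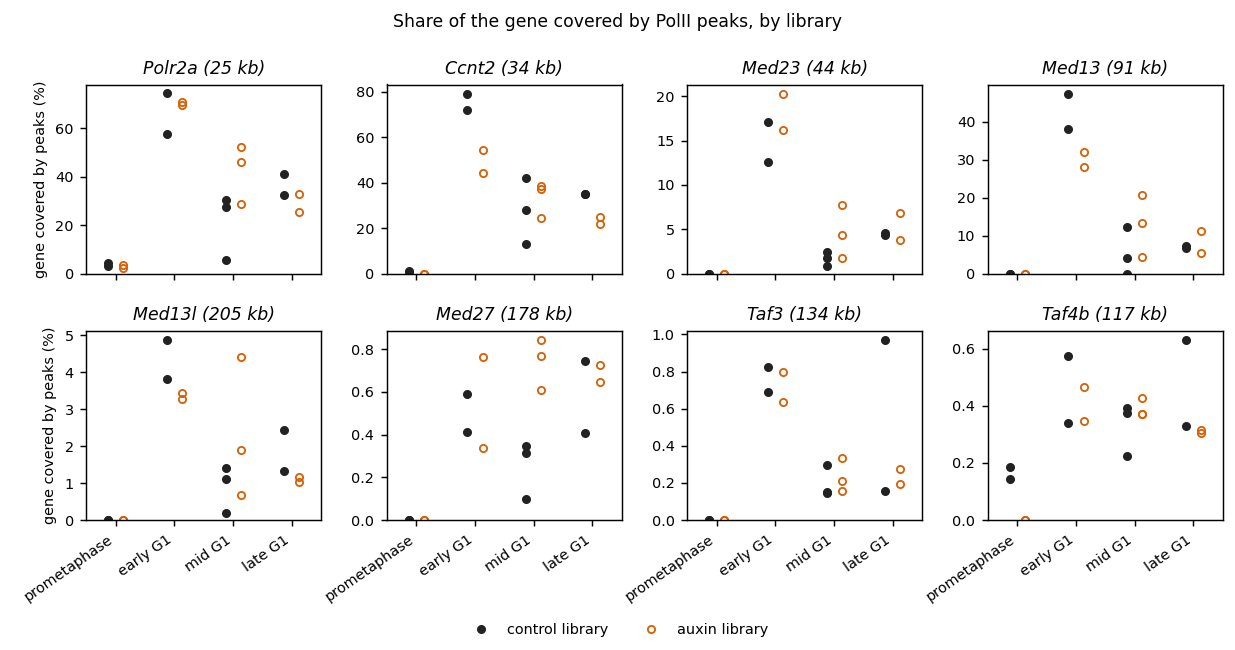
Percentage of the gene covered by PolII peaks in each library, by stage, for 4 members that fell between early-G1 and late-G1 (upper row) and the 4 longest members with a start-site peak in all 14 post-mitotic libraries (lower row); each point is 1 library and each panel has its own axis from 0. In the upper row every early-G1 point lies above every late-G1 point, as for Polr2a at 57.6% to 74.3% against 25.4% to 41%.

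Other genes of the transcription machinery were read from a fixed list of 58, covering elongation and pausing factors, further kinases and TFIIH subunits, the subunits of polymerases I and III, and assembly factors and tail phosphatases. Of these, 54 could be tested, 7 rose (13%, against 4.77% of all genes tested) and 5 fell (9.26%, against 6.09%) from early-G1 to late-G1 by limma. None was called for auxin, where 0.48% of all genes were higher and 0.245% lower. The fall was largest for Cdk12, a kinase of the PolII tail in elongation, from ranks of 330 to 592 to 1669 to 3718 (−2.56, SE 0.24, adjusted p = 0.000394). Rprd1b, which binds the tail, moved from 538 to 746 to 1882 to 2352 (−1.68, SE 0.23, adjusted p = 0.00194). Polr1c, shared by polymerases I and III, changed by −1.54 (SE 0.27, adjusted p = 0.00636). The polymerase III genes Polr3d (2.16, SE 0.27, adjusted p = 0.0014), Polr3g (1.52, SE 0.26, adjusted p = 0.00636) and Polr3k (1.26, SE 0.30, adjusted p = 0.0258) rose. Among these 58 genes, 9 had a start-site peak in all 4 prometaphase libraries (15.5%, against 3.13% of all genes), Cdk12 and Rprd1b among them. However, 52 of the 58 had a start-site peak in all 14 post-mitotic libraries, and among all genes with such peaks the share was 8.61%.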

How the data were processed

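PolII ChIP-seq peak lists of 18 libraries were used. The authors aligned reads to mm9 with Bowtie2 2.2.9, removed reads with mapping quality under 10 and duplicates with SAMtools 0.1.19, filtered with bedtools 2.27.1, and called peaks per library against input with MACS2 2.1.0 at a q threshold of 0.01. The deposited lists give each peak's fold enrichment (a ratio over local background), −log10 p and q values, and a score. Counts of reads were not used. Depth was estimated by solving each peak's fold enrichment and −log10 p for its background. The commonest background of a library was divided by the width of its narrowest peak. This is an estimate from the peak caller's background and not a count of reads.

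For each gene, plus 500 bp on either side, the strongest overlapping peak was ranked within its library, and −log2(rank) was tested with limma 3.58.1 in R 4.3.3 over 14 post-mitotic libraries, 6 group means and 9383 genes with a peak in all 14. Adjusted p-values are Benjamini-Hochberg, two-sided, with a threshold of 0.05. The 4 prometaphase libraries were described without a test. Tested on simulated data with 200 changed genes of 9383, the early-G1 to late-G1 test recovered 166 at a log2 change of 1 and 200 at 2, the auxin test 199 and 200, and the interaction 4 and 159. The simulation gave every gene the same spread, the median over genes. It therefore does not show the recovery for genes whose ranks varied more, such as Polr2a and Gtf2f1.

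Members and lists were chosen with earlier results of these data known. Genes named with values are the top-ranked member of each role, called members, members with prometaphase peaks, members lacking peaks, the longest members, key subunits chosen by function, and the largest changes in the related list. Other genes named were chosen after their values were seen. Alternatives were other scales, windows, filters, a depth covariate, a replicate block and leaving out each library.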

Additional observations from a re-analysis of the deposited data

Results flagged for a closer look

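The auxin effect on Med22 moved in opposite directions at the 2 stages. It was negative in early-G1, where controls ranked 153 and 194 and auxin libraries 321 and 253.5, and positive in late-G1, where controls ranked 546 and 1391 and auxin libraries 420.5 and 471. The late-G1 minus early-G1 difference was 1.70 on the −log2(rank) scale (limma adjusted p = 0.651). Without late-G1 control replicate 2 it was 2.37 and passed (adjusted p = 0.00965), and without late-G1 control replicate 3 it was 1.02 (adjusted p = 0.755).

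The peak counted for Taf6l, at the start of Tmem179b, moved the other way. Auxin libraries ranked 303.5 and 310.5 in early-G1 against 366.5 and 373 in controls, and 1657.5 and 2082 in late-G1 against 472 and 479. The difference was −2.23 (limma adjusted p = 0.172), and it passed without mid-G1 auxin replicate 3 (adjusted p = 0.0307).

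Rap1a, a small GTPase gene that is no member, was the one gene called in the interaction test and was named after its values were seen. It ranked 479 and 308.5 in early-G1 controls, 5908.5 and 5576.5 in early-G1 auxin libraries, 5613 and 6961 in late-G1 controls and 4852 and 4087 in late-G1 auxin libraries, a difference of 4.39 (SE 0.42, limma adjusted p = 0.0091). No gene was called without early-G1 control replicate 2, either early-G1 auxin library or late-G1 auxin replicate 1.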

How the results depend on the processing

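Of 1090 values of named member results under an alternative, 973 kept their side of the threshold, 114 lost the call and 3 gained it. The sign turned in 24 values of 15 results, among them the auxin change of Med22 and the early-G1 to late-G1 change of Polr2a, Ccnt1 and Tbp, and 0 of these 24 were called in either fit. For auxin, 68 genes were called, against 105 on centred log2 fold enrichment, 41 in the start-site window, 43 with depth as a covariate and 24 to 181 with 1 library left out (181 without late-G1 control replicate 2), while members called higher stayed at 0 to 0 and lower at 0 to 1. From early-G1 to late-G1, leaving out 1 library gave 521 to 1107 genes, 7 to 12 members lower and 0 to 2 higher, against 1019, 10 and 1. For the interaction, 1 gene was called, against 2 with normal scores, 2 on centred log2 fold enrichment, 0 with summits inside the window and 0 to 75 with 1 library left out (75 without late-G1 control replicate 2), with 0 to 1 members higher and 0 to 1 lower. For the covered share, 976 genes were called, against 359 on log2 covered bases, 2659 with depth and 252 to 2130 with 1 library left out. Members lower were 9, against 0 on log2 covered bases, 27 with depth and 1 to 17 with 1 library left out, and members higher were 0, against 1 on log2 covered bases, 1 without the detection filter, 1 with depth, 1 with a mean-variance trend (chosen after seeing the data) and 0 to 1 with 1 library left out. The prometaphase count of 9 was 7 to 9 under other windows and cut-offs and 9 to 11 with 1 library left out. The cause of these differences was not tested.

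With the replicate number as a block, 3 members rose from early-G1 to late-G1 (Taf4b, Polr2g and Med21) and 12 fell, 532 genes and 3 members lower were called for the covered share, and the auxin and interaction member counts stayed at 0. Deviations of each gene from its group mean were also compared between same-numbered control and auxin libraries of a stage. These deviations, not the ranks themselves, correlated at 0.067 in early-G1, 0.018 to 0.296 in mid-G1 and 0.00021 in late-G1. The highest, 0.296, was that of mid-G1 replicate 3. The numbers were not taken to pair the samples.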
